A study of Mus musculus with 6 samples.

Results

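The 54 genes described here encode the machinery that copies DNA and a set of enzymes that supply its building blocks. They were taken as a list of gene symbols and matched on the gene names of the deposited count table, where all 54 of 54532 genes were found. The list was sorted into 11 roles, from origin recognition to nucleotide supply and the handling of newly made chromatin. The series holds RNA-seq of BV2, a microglial cell line of the mouse, in 3 libraries labelled SMEK1 knockdown and 3 labelled WT. SMEK1 is a regulatory subunit of protein phosphatase 4, and the files list its gene as Ppp4r3a. Sample labels call the second group WT, whereas the design text of the series speaks of BV2 cells and of knockdown derivatives named LV1 and NL. What construct each group carried, whether it is 1 clone and whether the letters A, B and C mark separate cultures are points not given in the sources used here. P-values therefore measure the spread between these libraries, which may be technical. No stimulus is labelled for either group, and all libraries came from cells grown in the same serum-containing medium.

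DNA replication begins when the origin recognition complex, helped by Cdc6 and Cdt1, loads the ring-shaped MCM helicase onto DNA in G1 phase. At the start of S phase the kinase Cdc7 with its partner Dbf4 allows Cdc45 and the GINS complex to join that ring and form the active helicase. DNA polymerases, primase, the PCNA clamp with its RFC loader and the single-strand binding protein RPA then work at the fork, while nucleotide enzymes keep up the supply of deoxynucleotides. Many of these genes are textbook targets of E2F transcription factors, whose activity peaks around the G1/S transition. Microglia in a healthy brain divide rarely, whereas the BV2 line divides in culture.

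Because E2F binding is a shared textbook feature of such genes, their promoters are shown before their levels. RefSeq windows on GRCm38.p6, from 250 bases before to 50 bases after an annotated start, were matched by symbol for 46 of the 54 genes, which have 56 windows. Mcm4, Gins1, Gins2, Gins4, Rfc2, Prim2, Pole and Tipin were not matched. The E2F words searched on both strands were TTTCCCGC, TTTCGCGC, TTTGCCGC and TTTGGCGC, which can overlap each other. The windows of Cdca7 and Mcm5, whose transcripts fell furthest in their roles, of Mcm6, which was not called, and of Rfc4, which rose, are printed 5′ to 3′ on the gene's strand, with capitals marking the E2F words. GCGGGAAA is TTTCCCGC read on the other strand.
Cdca7, chr2:72475969-72476268, plus strand: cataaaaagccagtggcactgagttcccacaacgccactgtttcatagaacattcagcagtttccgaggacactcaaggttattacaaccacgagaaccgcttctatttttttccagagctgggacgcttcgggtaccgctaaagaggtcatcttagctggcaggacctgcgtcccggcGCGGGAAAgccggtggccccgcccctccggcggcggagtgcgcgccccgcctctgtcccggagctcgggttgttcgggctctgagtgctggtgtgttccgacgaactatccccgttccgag
Mcm5, chr8:75109259-75109558, plus strand: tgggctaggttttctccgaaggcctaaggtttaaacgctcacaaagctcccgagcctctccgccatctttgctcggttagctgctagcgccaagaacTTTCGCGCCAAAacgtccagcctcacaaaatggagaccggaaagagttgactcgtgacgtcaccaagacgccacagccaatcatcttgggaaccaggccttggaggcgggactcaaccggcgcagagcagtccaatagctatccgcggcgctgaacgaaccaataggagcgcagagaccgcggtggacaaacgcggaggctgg
Mcm6, chr1:128359656-128359955, minus strand: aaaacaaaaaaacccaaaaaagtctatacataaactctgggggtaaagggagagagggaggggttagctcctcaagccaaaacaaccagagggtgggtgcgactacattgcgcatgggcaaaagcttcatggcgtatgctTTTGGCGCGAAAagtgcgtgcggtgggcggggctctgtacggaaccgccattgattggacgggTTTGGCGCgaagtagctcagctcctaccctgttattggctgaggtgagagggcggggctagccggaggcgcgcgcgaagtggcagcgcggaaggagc
Rfc4, chr16:23127681-23127980, minus strand: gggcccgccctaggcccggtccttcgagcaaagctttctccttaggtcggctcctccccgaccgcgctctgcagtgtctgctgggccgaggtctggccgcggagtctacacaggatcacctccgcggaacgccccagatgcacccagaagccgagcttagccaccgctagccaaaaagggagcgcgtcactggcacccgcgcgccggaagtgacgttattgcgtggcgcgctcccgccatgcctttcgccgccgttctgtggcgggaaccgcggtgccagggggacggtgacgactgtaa
With the base at the annotated start counted as 0, the Cdca7 word lies at -71 to -64. The Mcm5 window has one pair of words on opposite strands that overlap, at -153 to -146 and -149 to -142. Mcm6 has an overlapping pair at -110 to -103 and -106 to -99 and a further word at -47 to -40, and Rfc4 has none of the searched letters.

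An E2F word was present for 17 of the 46 matched genes (37.0%), against 4.96% of 8967 tested genes and 2.60% of 27025 genes with a window. Counted by window, it was in 17 of 56 (30.4%), against 4.09% of the windows of tested genes and 2.26% of all 32851 windows of that length. Split by the call in the knockdown, it was present for 7 of 16 genes that were lower (43.8%), for 10 of 27 that were not called (37.0%) and for 0 of 3 that were higher. The 7 lower genes were Cdc6, Mcm3, Mcm5, Pola1, Lig1, Uhrf1 and Cdca7. CCAAT, the letters bound by NF-Y, was found on either strand for 56.5% of the matched genes and 43.1% of tested genes. Counted by window, it was in 51.8% for the matched genes, 37.9% for tested genes and 37.4% of all windows. The CHR letters TTTGAA or TTCGAA of late cell cycle promoters were found for 19.6% of the matched genes and 16.4% of tested genes. By window the shares were 17.9% and 14.0%, against 19.2% of all windows. These matches describe letters in a window and no binding was measured.

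The target transcript Ppp4r3a was counted 48, 122 and 94 times in knockdown libraries A to C and 335, 227 and 260 times in WT libraries A to C. It stood at 26.1% of WT on the scaled level (log2 fold change -1.94 ± 0.24 SE, edgeR adjusted p = 8.22e-05). The related gene Ppp4r3b was also called lower, at 59.9% of WT (-0.74 ± 0.22 SE, edgeR adjusted p = 0.0179). The Ppp4r3b call was lost with library totals (adjusted p = 0.0819) and without knockdown A (0.0616), knockdown C (0.0726), WT A (0.0633) or WT C (0.0595). Total counts ran from 18627425 to 21131557 for the knockdown libraries and from 18036591 to 18708438 for WT, and the biological coefficient of variation was 0.121. Levels below are CPM, counts scaled to a common library size, set by TMM, which sets libraries equal over most genes, and fold changes are given as log2 of the knockdown level over the WT level. A gene is called where edgeR's quasi-likelihood test gave an adjusted p under 0.05 over all 12269 genes that passed the filter on low counts. Of the 14 microglia and macrophage markers 11 were tested, while P2ry12 and Sall1, which define brain microglia, were at or near 0 and Cx3cr1 stood below 1 CPM in both groups. The summed marker level was 3820 to 4280 CPM in the knockdown libraries and 4100 to 4650 CPM in WT. Markers of neurons, astrocytes, endothelial cells, fibroblasts and lymphocytes summed to at most 0.575 CPM per list in any library. The oligodendrocyte list summed to 7.15 to 7.26 CPM in the knockdown libraries and 2.45 to 2.70 CPM in WT, nearly all of it Mbp, with Mog and Olig2 at 0. The part of these markers in the results below was not tested.

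All 54 genes passed the filter. In the knockdown 5 of them were higher (9.26%) and 17 lower (31.5%), and 32 were not called. The background is 20.5% of tested genes called higher and 19.6% called lower, 40.1% in all, so the share of replication genes called in either direction (40.7%) is close to it. The roles below hold 2 to 9 genes each, so these shares stand beside the counts given for each role. The median log2 fold change of the 54 was -0.05, beside 0.01 over all tested genes. The CPM ranges of the groups did not overlap for 25 of the 54 (46.3%), against 50.9% of tested genes. The genes called higher were Gins1, Gins4, Cdc45, Rfc4 and Orc6. The genes called lower were Cdca7, Rpa2, Rfc1, Pold2, Pola1, Slbp, Cdc6, Mcm5, Fen1, Pole, Lig1, Chaf1a, Pola2, Timeless, Mcm2, Mcm3 and Uhrf1. Together the 54 genes took 0.357% to 0.386% of all counts in the knockdown libraries and 0.361% to 0.365% in WT.

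The split depends on the scaling between libraries. TMM factors were 1.03 to 1.09 in the knockdown libraries and 0.907 to 0.991 in WT. With library totals in place of TMM the median of all genes moved up by 0.16 on the log2 scale, calls went from 51.1% to 71.3% higher, and the 54 genes then split into 14 higher and 9 lower. Of the 22 called genes, 12 kept their call and direction under all 15 alternatives run. These were Gins1, Gins4, Cdc45 and Rfc4 among the higher, and Cdc6, Mcm5, Pold2, Rpa2, Lig1, Chaf1a, Slbp and Cdca7 among the lower. In bulk RNA, fewer cells in S phase and less transcript per cell cannot be told apart.

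**Figure D1:**
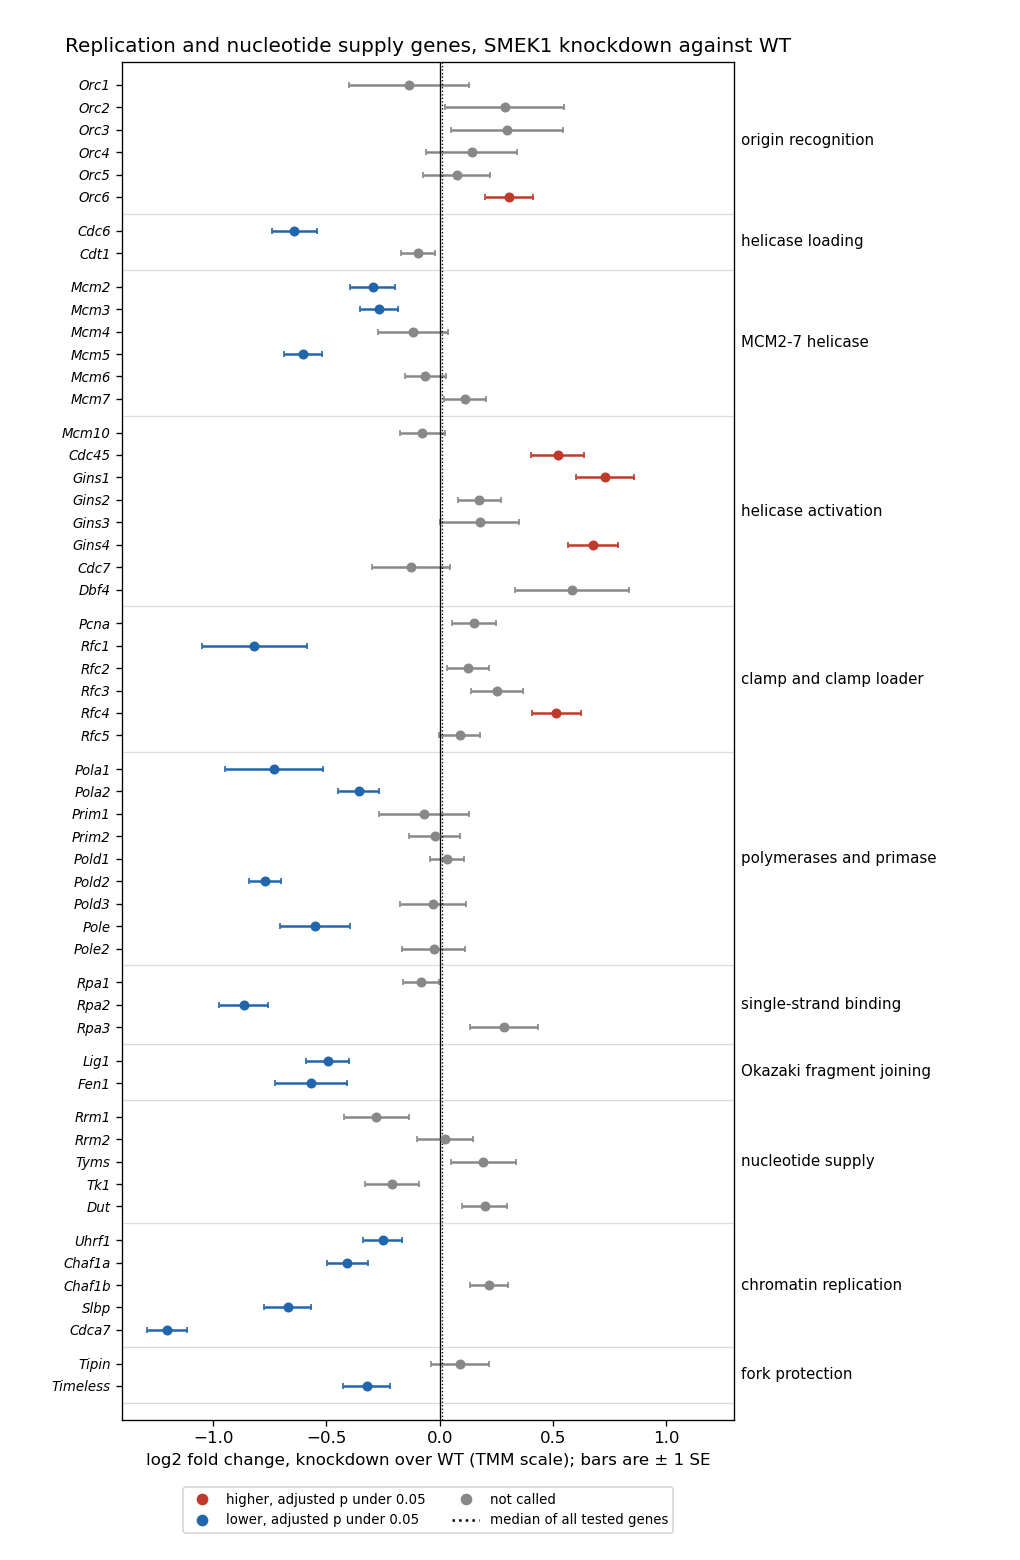
Log2 fold change of each of the 54 genes, knockdown over WT, on the x axis, with bars of 1 SE (n = 3 libraries per group) and genes grouped by role. Red points are the 5 genes called higher, blue the 17 called lower and grey the 32 not called; Cdca7 lies furthest left at -1.20 and Gins1 furthest right at 0.73.

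Among the 6 subunits of the origin recognition complex, which marks the sites where replication can start, 1 was called. Orc6, the smallest subunit, was at 30.2, 32.7 and 33.3 CPM in the knockdown libraries (A to C in order, here and below) and at 23.5, 27.7 and 26.6 CPM in the WT libraries. The groups did not overlap, and Orc6 was 124% of WT (log2 fold change 0.31 ± 0.11 SE, edgeR adjusted p = 0.0378). This call was lost without knockdown C (adjusted p = 0.118), without WT A (0.126) and without WT C (0.0942). Orc1 to Orc5 lay between -0.14 and 0.30 on the log2 scale and their groups overlapped. Orc1, a subunit that binds and hydrolyses ATP, was at 2.98 to 4.92 CPM in the knockdown libraries and 3.30 to 5.78 CPM in WT.

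Of the pair that brings the helicase to the origin, Cdc6 fell and Cdt1 was not called. Cdc6, an ATPase that helps to load the helicase, was at 22.3, 23.3 and 24.3 CPM in the knockdown libraries and at 34.5, 37.4 and 37.2 CPM in WT. That is 64.1% of WT with no overlap (log2 fold change -0.64 ± 0.10 SE, edgeR adjusted p = 0.000343). Cdt1, the other loading factor, was at 235 to 255 CPM in the knockdown libraries and 259 to 271 CPM in WT (log2 fold change -0.10 ± 0.07 SE, edgeR adjusted p = 0.331). Within each library, the ratio of Cdc6 to Cdt1 counts, which no scaling changes, was 0.0886 to 0.0989 in the knockdown and 0.127 to 0.144 in WT.

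The 6 MCM subunits form 1 ring in equal parts. By edgeR 3 of their 6 transcripts were called lower (50%, against 19.6% of all tested genes) and 0 higher (against 20.5%). DESeq2 and limma-voom gave the same counts, and 0 were higher at an unadjusted p under 0.05. Other settings gave fewer falls, with 1 lower and 1 higher with library totals and 2 lower with limma on FPKM. Only 1 was lower with the replicate block and without knockdown B, knockdown C, WT B or WT C. Mcm5 fell from 261, 290 and 281 CPM in WT to 186, 168 and 195 CPM in the knockdown, or 65.8% of WT (log2 fold change -0.60 ± 0.08 SE, edgeR adjusted p = 0.000164). No knockdown library reached the lowest WT library. Mcm2 was at 213, 166 and 179 CPM against 215, 227 and 244 CPM, so that knockdown A lay just under WT A, and it was called lower at -0.30 ± 0.10 SE (edgeR adjusted p = 0.032). Mcm3 was lower by a similar amount, -0.27 ± 0.09 SE (edgeR adjusted p = 0.0257). The Mcm2 call was lost with limma on FPKM (adjusted p = 0.0584 and 0.0592 with the larger and smaller pseudocount). The calls of Mcm2 and Mcm3 were lost with library totals (adjusted p = 0.189 and 0.156), and without knockdown B (0.122 and 0.101), knockdown C (0.133 and 0.0805), WT B (0.0555 and 0.0846) or WT C (0.138 and 0.0985). Mcm4, Mcm6 and Mcm7 were not called, at -0.12 ± 0.16, -0.06 ± 0.09 and 0.11 ± 0.09 SE. Mcm7 was called higher with library totals, at 0.28. The ratio of Mcm5 to Mcm7 counts was 0.860 to 0.957 in the knockdown and 1.39 to 1.61 in WT, a gap that no scaling between libraries changes.

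The 8 genes that turn the loaded ring into a working helicase held 3 of the 5 rises. That is 37.5% called higher, against 20.5% of all tested genes, and 0 lower, against 19.6%. Gins1, a subunit of the GINS complex that bridges helicase and polymerase, was at 33.0, 31.5 and 39.4 CPM in the knockdown libraries and 19.5, 23.9 and 19.3 CPM in WT. It reached 166% of WT (log2 fold change 0.73 ± 0.13 SE, edgeR adjusted p = 0.000855). Gins4, another of the complex's subunits, rose from 37.1, 50.1 and 42.4 CPM to 68.2, 65.8 and 73.3 CPM, or 160% of WT (0.68 ± 0.11 SE, edgeR adjusted p = 0.000479). For both genes every knockdown library lay above every WT library.

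Cdc45, which completes the active helicase, was at 91.4, 93.8 and 108 CPM in the knockdown against 57.6, 80.3 and 66.8 CPM in WT (143% of WT, log2 fold change 0.52 ± 0.12 SE, edgeR adjusted p = 0.00395). The groups stood apart, with WT B the nearest WT library. Gins2 and Gins3, the remaining GINS subunits, were both at 0.18 (± 0.09 and ± 0.17 SE) and not called, and Gins2 was called higher with library totals (0.34) and without knockdown B (0.26). Dbf4, the activating partner of the Cdc7 kinase, had a log2 fold change of 0.58 ± 0.25 SE (edgeR adjusted p = 0.0849). Its levels of 10.6, 21.1 and 16.4 CPM in the knockdown libraries and 13.8, 7.70 and 10.7 CPM in WT overlapped. Dbf4 was called with DESeq2 (adjusted p = 0.0433), with the looser count filter (0.00157), without knockdown A (0.0206) and without WT A (0.0276). Cdc7 itself was at -0.13 ± 0.17 SE, and Mcm10, which helps the helicase to start moving, at -0.08 ± 0.10 SE.

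Set against each other within a library, Cdc45 and the 4 GINS genes summed to 0.301, 0.315 and 0.345 of the summed counts of Mcm2 to Mcm7 in the knockdown libraries and to 0.183, 0.212 and 0.187 in the WT libraries. The ratio was thus 1.65 times higher in the knockdown, with a gap between the groups. The pairs and sums set in ratio here were chosen with their values known, so the gaps are descriptions. Such ratios carry gene length as well as abundance, so they are no stoichiometry. Scaling between libraries does not change them, but levels also moved with gene length to a degree that differed by library. Ratios of genes of unlike length may therefore differ between libraries with that pattern. Its part in the gaps between groups was not tested.

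**Figure D2:**
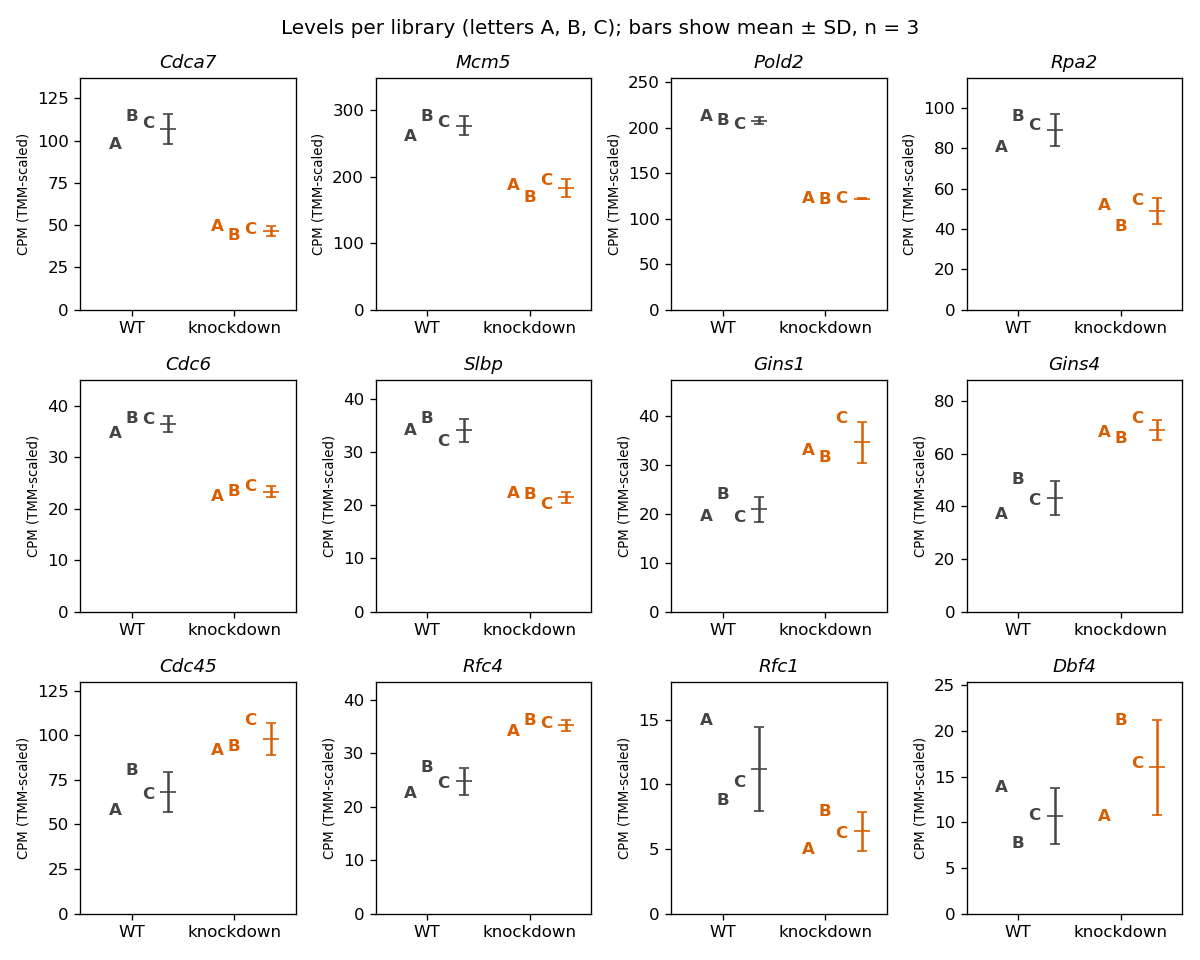
TMM-scaled CPM (y axis, from 0) of 12 genes in each library; letters mark libraries A, B and C, grey for WT and orange for knockdown, and bars give the mean ± SD (n = 3). The groups stand apart for each gene except Dbf4, where knockdown A (10.6 CPM) lies below WT A (13.8 CPM).

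PCNA is the sliding clamp that holds polymerases on DNA, and the 5 RFC subunits load it. Pcna was the most abundant of the 54 transcripts per length, at 158 ± 15.0 FPKM (SD, n = 3) in the knockdown and 143 ± 13.6 FPKM in WT, and was not called (0.15 ± 0.10 SE). It was called higher with library totals (0.31). Of the loader subunits 1 was called higher and 1 lower. Rfc4, one of the small subunits, rose from 22.4, 27.3 and 24.3 CPM in WT to 34.1, 36.0 and 35.6 CPM (143% of WT, log2 fold change 0.52 ± 0.11 SE, edgeR adjusted p = 0.00249). Rfc1, the large subunit of the replicative loader, was at 4.96, 7.91 and 6.19 CPM in the knockdown libraries and 14.9, 8.71 and 10.1 CPM in WT. It was called lower at 56.7% of WT (-0.82 ± 0.23 SE, edgeR adjusted p = 0.0149), with knockdown B close under WT B. The Rfc1 call was lost with library totals (adjusted p = 0.0705) and without knockdown A (0.0595), knockdown C (0.0536) or WT A (0.0643). Rfc2, Rfc3 and Rfc5 lay between 0.09 and 0.25 and were not called, but all 3 were called higher with library totals, at 0.28, 0.41 and 0.25. The count ratio of Rfc4 to Rfc1 was 4.56 to 6.86 in the knockdown and 1.5 to 3.14 in WT.

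Of 9 polymerase and primase genes, 4 fell (44.4%, against 19.6% of all tested genes), 0 rose (against 20.5%) and 5 were not called. DESeq2 and limma-voom also gave 4 and 0, and 0 were higher at an unadjusted p under 0.05. The number called lower was 1 with library totals and 3 with the replicate block. It ranged from 2 (without WT C) to 4 when 1 library was left out. Pold2, the accessory subunit of polymerase delta on the lagging strand, had the smallest SE of the 54 genes. It was at 122, 121 and 122 CPM in the knockdown libraries and 212, 208 and 204 CPM in WT, or 58.6% of WT (log2 fold change -0.77 ± 0.07 SE, edgeR adjusted p = 7.65e-06). Pold1, the catalytic subunit of the same enzyme, was at 107 ± 3.24 CPM and 104 ± 4.53 CPM (0.03 ± 0.07 SE), and Pold3 was at -0.03 ± 0.15 SE. The ratio of Pold2 to Pold1 counts was 1.11, 1.14 and 1.18 in the knockdown and 1.95, 2.0 and 2.05 in WT.

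Polymerase alpha, which makes the first stretch of each new strand together with primase, fell in both of its own subunits. Pola1, the catalytic subunit, was the least abundant of the 54 genes per length, at 0.359 ± 0.0168 FPKM in the knockdown and 0.599 ± 0.128 FPKM in WT. In scaled counts it was at 3.19, 3.38 and 3.03 CPM against 6.48, 4.24 and 5.18 CPM (60.3% of WT, -0.73 ± 0.22 SE, edgeR adjusted p = 0.0184). Pola2, the second subunit, fell to 78.0% of WT (-0.36 ± 0.09 SE, edgeR adjusted p = 0.00892). With library totals both calls were lost (adjusted p = 0.0686 and 0.0574), and the Pola1 call was lost also on leaving out knockdown C (0.0773), WT C (0.0511) or WT A (0.0796). Prim1 and Prim2, the primase subunits, were at -0.07 ± 0.20 and -0.02 ± 0.11 SE. Pole, the catalytic subunit of the leading strand polymerase epsilon, was at 9.82, 12.7 and 13.6 CPM against 18.1, 15.8 and 19 CPM (68.2% of WT, -0.55 ± 0.15 SE, edgeR adjusted p = 0.0138). The Pole call was lost with library totals (adjusted p = 0.0861) and without WT C (0.0661), and its partner Pole2 was at -0.03 ± 0.14 SE.

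RPA, a complex of 3 subunits, coats the single strands that the helicase exposes. Rpa2, the middle subunit, was at 51.4, 41.4 and 53.9 CPM in the knockdown libraries and 80.4, 95.6 and 91.2 CPM in WT, or 54.9% of WT (log2 fold change -0.87 ± 0.11 SE, edgeR adjusted p = 8.62e-05). The 2 groups were far apart, with a highest knockdown library of 53.9 CPM and a lowest WT library of 80.4 CPM. Rpa1, the large subunit, was at -0.08 ± 0.08 SE and Rpa3, the small one, at 0.28 ± 0.15 SE, and neither was called. Rpa3 was called higher with library totals (0.44) and without knockdown B (0.42). Counts of Rpa2 were 0.507 to 0.704 of those of Rpa1 in the knockdown and 1.03 to 1.16 in WT.

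Both genes that finish the lagging strand fell. Fen1, the nuclease that trims the flap of each Okazaki fragment, was at 7.16, 6.31 and 7.18 CPM against 9.28, 11.2 and 10.2 CPM in WT (67.5% of WT, -0.57 ± 0.16 SE, edgeR adjusted p = 0.0146). This call was lost without knockdown B (adjusted p = 0.0527), WT B (0.0566) or WT C (0.0513). Lig1, the ligase that seals the fragments, was at 38.9, 47.5 and 44.0 CPM against 60.0, 60.3 and 63.7 CPM (70.9% of WT, -0.50 ± 0.09 SE, edgeR adjusted p = 0.00141), and its groups did not overlap.

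Of the 5 nucleotide supply genes 0 were called by edgeR, at an adjusted p of 0.13 or more, and the groups overlapped for each. At an unadjusted p under 0.05 the count was also 0, and DESeq2 and limma-voom called 0. Rrm1, the large subunit of ribonucleotide reductase, had the largest difference among them, with 41.0, 66.5 and 58.0 CPM in the knockdown libraries and 70.1, 62.4 and 68.7 CPM in WT (-0.28 ± 0.14 SE, edgeR adjusted p = 0.14). Knockdown A and C lay below every WT library, while knockdown B was above WT B. Rrm2, the small subunit made in S phase, was at 23.3 ± 2.96 CPM and 23.0 ± 1.62 CPM (0.02 ± 0.13 SE). Tyms, which makes thymidylate, was at 0.19 ± 0.14 SE, Tk1, which salvages thymidine, at -0.21 ± 0.12 SE, and Dut, which keeps uracil out of DNA, at 0.20 ± 0.10 SE. Leaving out 1 library brought some of them over the threshold, namely Rrm1 at -0.41 and Dut at 0.29 without knockdown B, Tk1 at -0.36 without knockdown C, and Tyms at 0.36 and Dut at 0.28 without WT B. With library totals Dut was called higher at 0.36, and with the looser count filter Rrm1 was called at -0.25 and Dut at 0.23.

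Genes grouped under the handling of newly made chromatin had 4 falls among 5 (80%, against 19.6% of all tested genes) and 0 rises (against 20.5%). Cdca7, which activates the HELLS chromatin remodeller used in maintaining DNA methylation, had the largest change of all 54 genes. Its levels were 49.4, 43.6 and 47.2 CPM in the knockdown libraries and 97.6, 114 and 110 CPM in WT, or 43.5% of WT (log2 fold change -1.20 ± 0.09 SE, edgeR adjusted p = 1.52e-06). Each WT library was above each knockdown library by a wide margin. Slbp, which binds the stem-loop of histone mRNAs, fell from 34.2, 36.3 and 32.0 CPM to 22.2, 22 and 20.2 CPM (62.8% of WT, -0.67 ± 0.10 SE, edgeR adjusted p = 0.000364).

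Chaf1a, the large subunit of the histone chaperone CAF-1, fell to 75.4% of WT (-0.41 ± 0.09 SE, edgeR adjusted p = 0.00359), while Chaf1b, its middle subunit, was at 116% (0.22 ± 0.08 SE, edgeR adjusted p = 0.0558). Chaf1b was called higher with library totals (0.38), with both other count filters (0.25 and 0.22) and without knockdown B (0.26). The count ratio of Chaf1a to Chaf1b was 0.653 to 0.719 in the knockdown and 1.03 to 1.11 in WT. Uhrf1, which reads hemimethylated DNA, was at 135, 110.0 and 118 CPM against 141, 142 and 148 CPM and called lower at -0.25 ± 0.09 SE (edgeR adjusted p = 0.0362). The Uhrf1 call was lost with library totals (adjusted p = 0.303), with limma on FPKM (0.0589 and 0.0598), and without knockdown B (0.16), knockdown C (0.152), WT B (0.0616) or WT C (0.13). Of the fork protection pair, Timeless was at 25.2, 27.4 and 27.9 CPM against 33.1, 31.2 and 36.3 CPM (-0.32 ± 0.10 SE, edgeR adjusted p = 0.0276). That call was lost with library totals (adjusted p = 0.251), with the looser count filter (0.0693) and without knockdown A (0.068), knockdown C (0.065) or WT C (0.14). Tipin, its partner, was at 0.09 ± 0.13 SE.

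**Figure D3:**
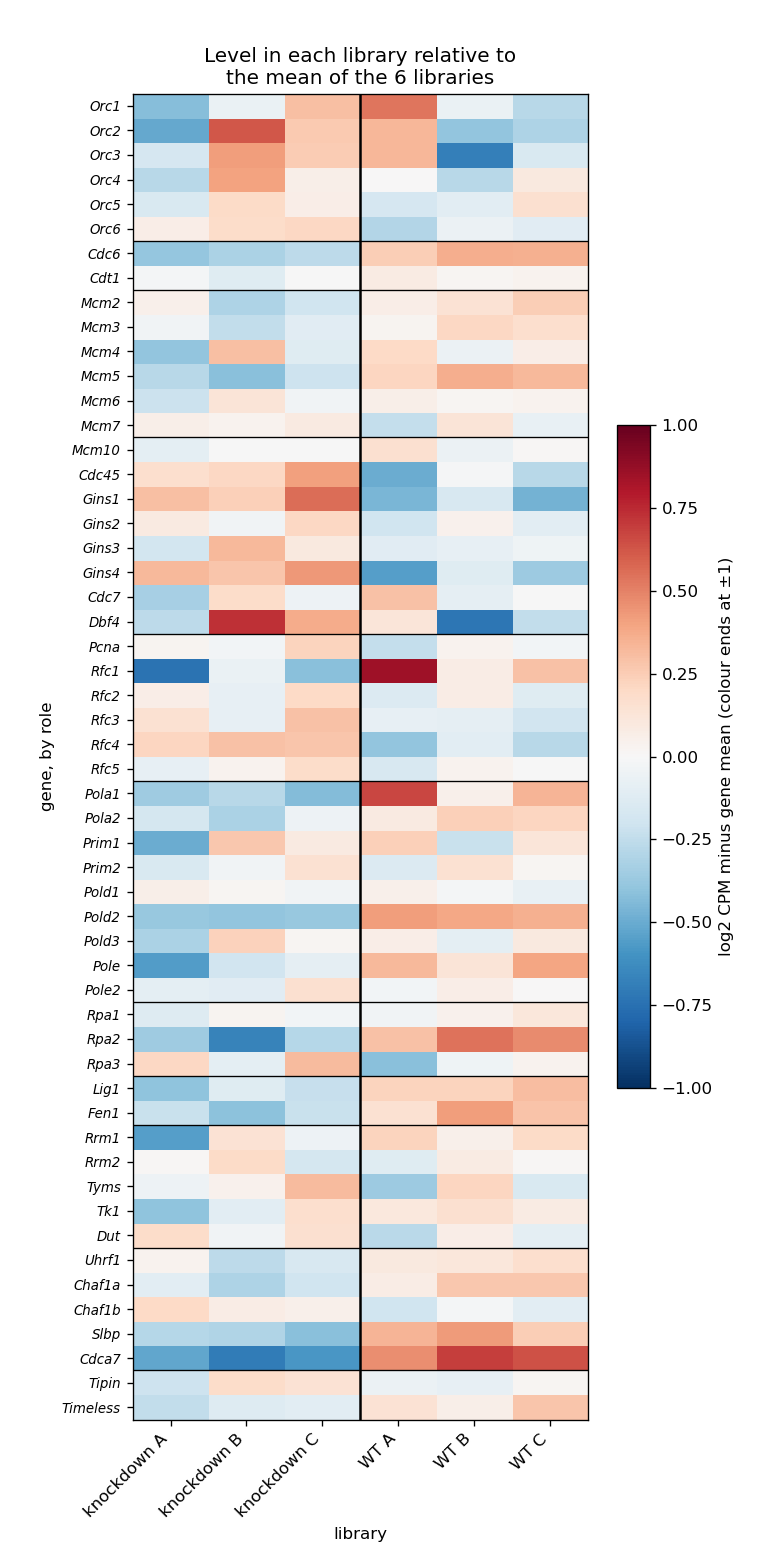
Log2 CPM of each gene in each library (columns) minus the mean of that gene over the 6 libraries, red above and blue below, with the colour scale ending at ±1 and rows grouped by role. Cdca7, Pold2, Rpa2, Slbp, Cdc6 and Mcm5 are blue in all 3 knockdown libraries and red in all 3 WT libraries, and Gins1, Gins4, Cdc45 and Rfc4 show the reverse.

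The levels within a group moved with gene length. Across 12269 tested genes, which are not independent replicates, the deviation from the group mean had a Spearman rho with gene length of -0.253, 0.379 and -0.147 for knockdown A to C, and of 0.357, -0.370 and -0.056 for WT A to C. Among the 54 genes, 17 (31.5%) were lower in knockdown A than in knockdown B and higher in WT A than in WT B, and 20 (37.0%) had the opposite pattern. Over all tested genes the shares were 30.4% and 38.8%. The 17 included Orc1 to Orc4, Rfc1, Pola1, Pole, Rrm1 and Dbf4 and had a median length of 6021 bases, while the 20 included Mcm2, Mcm5, Gins1, Gins4, Pcna and Cdca7 and had a median length of 3477 bases. The part of this pattern in the differences between groups was not tested.

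Position on chromosomes also moved with some of these levels. Tested genes of chromosome 16 had a median log2 fold change of 0.40 (377 genes), and 4 of the 54 genes lie there. These were Cdc45 (0.52) and Rfc4 (0.52), both called higher, Chaf1b (0.22) and Mcm4 (-0.12), which were not. Gins1, at chr2:150905400-150931280, and Gins4, at chr8:23226616-23237659, lie on chromosomes with medians of 0.14 and -0.03. Of the genes that fell most, Cdca7 is at chr2:72476159-72486893, Pold2 at chr11:5872180-5878292 (chromosome median 0.01) and Rpa2 at chr4:132768332-132778752 (-0.08). These positions are those of the deposited table on GRCm38.

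Exons of 17 of the 54 genes overlap exons of a gene on the opposite strand in GENCODE M21, and whether counting used the strand is not stated in the sources at hand. If counting did not use the strand, reads of such pairs cannot be told apart where they overlap. The overlap covers 78.8% of the exon bases of Fen1, whose antisense partner had 13 counts in the knockdown group and 10 in WT. A further 5.37% of Fen1 overlaps Tmem258, with 5379 and 7535 counts. Opposite-strand exons cover 52.5% of the exon bases of Chaf1a (Ubxn6, 3979 counts in the knockdown and 3875 in WT). They cover 67.3% of those of Gins2 (Gse1, 3564 and 3481) and 29.8% of those of Orc2 (Nif3l1, 3695 and 2778). Smaller overlaps join Mcm7 with Cops6 (1.45%, 15993 counts in the knockdown and 10360 in WT), Rfc2 with Lat2 (15.1%, 14117 and 8865) and Rfc5 with Wsb2 (10.7%, 10386 and 6980). The share is 12.7% for Rfc4 (Eif4a2), 6.93% for Orc6 (Vps35), 5.79% for Lig1 (Zswim9) and 5.96% for Cdc45, whose neighbour Ufd1 had 2720 counts in the knockdown and 1481 in WT. A copy elsewhere of at least 95% identity over 200 bases was found for 8 genes, among them Pcna, Mcm7, Uhrf1, Rfc5, Cdc6, Rrm2 and Slbp. The most counted of these pseudogene copies, Pcna-ps2, had 177 and 135 counts per group, so the counts of these genes are uncertain by how reads were shared. The eighth, Tyms, matched stretches of many unrelated transcripts.

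Replication factors outside the list were taken from a list of 32 other genes, all of which were tested, and 3 were higher (9.38%) and 6 lower (18.8%), against 20.5% and 19.6% of all tested genes, with a median of -0.18. Rnaseh2c, a subunit of the nuclease that removes ribonucleotides from DNA, fell from 197 ± 4.57 CPM in WT to 103 ± 10.9 CPM (SD, n = 3; -0.94 ± 0.09 SE, edgeR adjusted p = 9.02e-06). Pold4, the small subunit of polymerase delta (-0.43), Mcmbp, which binds MCM subunits (-0.38), and Dnmt1, the maintenance DNA methyltransferase (-0.35), were lower too. The Dnmt1 call was lost with library totals (adjusted p = 0.11). Pole3, a histone-fold subunit of polymerase epsilon, rose to 145% of WT (0.53 ± 0.10 SE, edgeR adjusted p = 0.00101). Recql4, a helicase needed for origin firing, rose by 0.45 ± 0.09 SE, and the histone chaperone gene Asf1b was called higher at 0.25, a call lost without WT A (adjusted p = 0.0662), WT B (0.0526), WT C (0.0657) or knockdown C (0.114). With library totals this list had 6 higher and 4 lower and a median of -0.02.

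The wider list of nucleotide synthesis and salvage had 29 genes, all tested, of which 6 were higher (20.7%) and 13 lower (44.8%), against the same background of 20.5% and 19.6%, with a median of -0.15. Prps1, which makes the ribose phosphate precursor of all nucleotides, was at 31.6, 33.4 and 35.5 CPM in the knockdown libraries and 64.1, 76.4 and 66.8 CPM in WT (-1.04 ± 0.10 SE, edgeR adjusted p = 8.26e-06). Shmt1, a source of one-carbon units for thymidylate (-0.65), Cad, which starts pyrimidine synthesis (-0.57), and Dctpp1, a nucleotide pyrophosphatase (-0.53), also fell. Dguok, a mitochondrial deoxynucleoside kinase, rose from 12.4, 16.5 and 14.8 CPM to 28.6, 21.1 and 24.7 CPM (0.77 ± 0.15 SE, edgeR adjusted p = 0.00175). The purine synthesis genes Gart (0.34, on chromosome 16) and Adsl (0.35) were higher as well. Rrm2b, the small ribonucleotide reductase subunit used outside S phase, was singled out after its values were seen. It had a low level of 2.35, 4.18 and 4.20 CPM against 1.89, 1.91 and 1.53 CPM (1.01 ± 0.28 SE, edgeR adjusted p = 0.0133), and its call was lost without knockdown C (adjusted p = 0.0615) or WT C (0.0583). With library totals the list had 8 higher and 9 lower, and its median changed sign to 0.01.

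Of 16 genes of the E2F and RB families and their partners, 15 were tested, and E2f7 had 0 counts in every library. Among those tested 1 was higher (6.67%) and 2 were lower (13.3%), against 20.5% and 19.6% of all tested genes. E2f1, an activator, was called higher at 115 ± 5.86 CPM against 98.7 ± 2.69 CPM (0.22 ± 0.08 SE, edgeR adjusted p = 0.033). The E2f1 call was lost with DESeq2 (adjusted p = 0.0604), with its size factors (0.0539) and with limma on FPKM (0.0618 and 0.0623). It was also lost without knockdown A (0.0624), knockdown C (0.0899), WT B (0.109) or WT C (0.101). E2f2, another activator, fell from 51.7, 48.5 and 47.4 CPM to 34.9, 33.7 and 33.4 CPM (-0.53 ± 0.09 SE, edgeR adjusted p = 0.000549). E2f8, a repressor, fell from 17.9 ± 0.302 CPM to 11.8 ± 0.945 CPM (-0.59 ± 0.13 SE, edgeR adjusted p = 0.00352). E2f3 (-0.15), E2f4 (-0.14), E2f5 (0.11), E2f6 (0.15), Tfdp1 (-0.22), Tfdp2 (-0.28), Rb1 (-0.66), Rbl1 (0.41), Rbl2 (0.28), Lin9 (-0.45), Lin54 (-0.06) and Mybl2 (0.18) were not called. Mybl2 and E2f6 were called higher with library totals (0.33 and 0.31), and Mybl2 also without knockdown B (0.22). Rb1 was called lower with the looser count filter (-0.63), without knockdown B (-0.87) and without WT B (-0.89), and Tfdp1 without WT A (-0.29).

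Among 16 regulators of the G1/S transition, 2 were higher (12.5%) and 7 lower (43.8%), against 20.5% and 19.6% of all tested genes. The median was -0.27. Cdkn2a, whose locus encodes 2 growth inhibitors, stood at 133, 128 and 142 CPM in the knockdown libraries and 270.0, 299 and 276 CPM in WT (-1.07 ± 0.08 SE, edgeR adjusted p = 1.62e-06). Ccnd2, a D-type cyclin, fell to 54.2% of WT (-0.88 ± 0.10 SE, edgeR adjusted p = 3.37e-05), and Ccne1, a cyclin of S phase entry, and Ccnd1 were lower by -0.55 and -0.32. Ccna2, the cyclin of S phase and G2, rose from 37.3 ± 0.923 CPM to 64.0 ± 8.45 CPM (0.78 ± 0.11 SE, edgeR adjusted p = 0.000135). Cdkn1a, a CDK inhibitor, was called higher at 0.24 (edgeR adjusted p = 0.0406). The Cdkn1a call was lost with DESeq2 (adjusted p = 0.0715), with its size factors (0.0607) and with limma on FPKM (0.085 and 0.0859). It was also lost when any library except knockdown B was left out (0.052 to 0.125). The Ccnd1 call was lost with library totals (adjusted p = 0.0616), under which the list had 4 higher and 3 lower and a median of -0.11.

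Genes of G2 and mitosis had another split, with 13 of 27 higher (48.1%, against 20.5% of all tested genes), 0 lower (against 19.6%, and also 0 at an unadjusted p under 0.05) and a median of 0.36. DESeq2 called 14 higher and limma-voom 13, with 0 lower in both, and with the looser count filter 16 were higher and 1 lower. The 1 lower was Mki67, at -0.46 (edgeR adjusted p = 0.0223). It was at -0.50 ± 0.27 SE and not called in the main fit (edgeR adjusted p = 0.164). In the main fit 4 of the 27 genes had a negative log2 fold change, the lowest at -0.61. Aurka, a mitotic kinase, rose from 93.1 ± 6.86 CPM to 179 ± 19.1 CPM (0.94 ± 0.09 SE, edgeR adjusted p = 1.57e-05). Ccnb2, a B-type cyclin (0.85), Espl1, the protease that releases sister chromatids (0.53), and Plk1, a further mitotic kinase (0.60), rose too. The number of these genes called higher was 11 to 17 when 1 library was left out and 16 with library totals. Within a library, the summed counts of this list were 0.408 to 0.470 of those of the 54 genes in the knockdown and 0.282 to 0.294 in WT, and the groups did not overlap. These lists and the 54 genes were fitted together, and no test of a list as a whole was made.

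**Figure D4:**
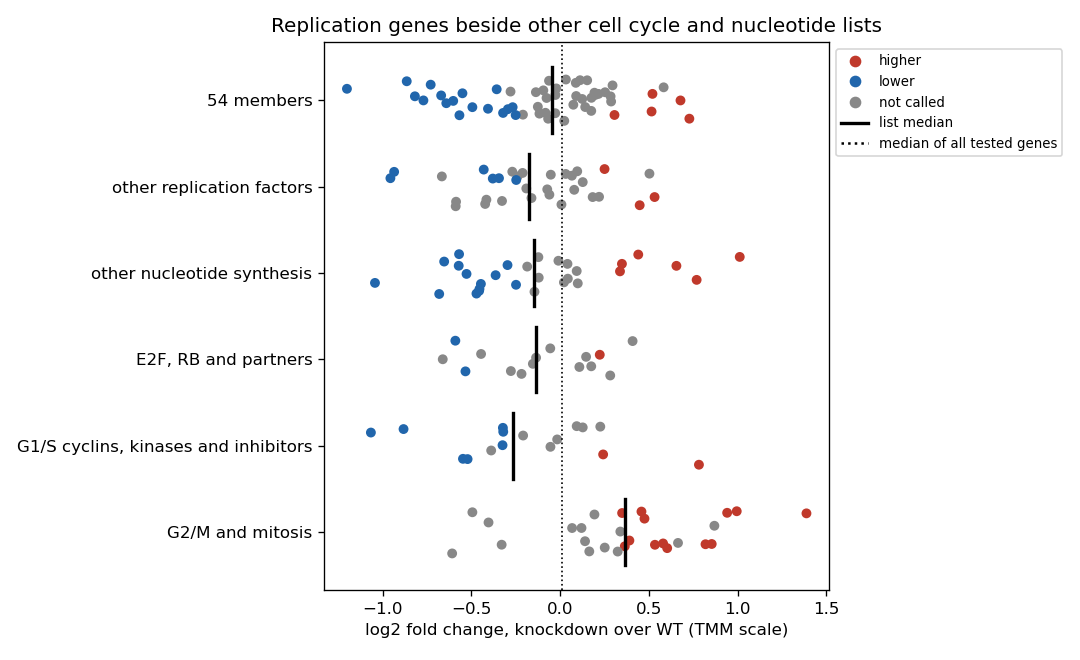
Log2 fold change (x axis, knockdown over WT) of each tested gene in the 54-gene list and the 5 wider lists (rows), with heavy black bars at the list medians and a dotted line at the median of all tested genes (0.01). The G2 and mitosis list has its median at 0.36, to the right of the line, and the other 5 lists have medians between -0.27 and -0.05. With library totals the medians of 3 of these 5 turn positive, at 0.12 for the 54 genes, 0.01 for other nucleotide synthesis and 0.02 for E2F and RB.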

How the data were processed

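RNA-seq of 6 BV2 libraries was deposited by the authors as whole-number counts per gene and as FPKM. The build was GRCm38 (mm10), per the submitters' processing notes. Aligner, counter and use of strand are steps not given in the sources used here. Per the labels' protocols, libraries were made from total RNA with a SMARTER mRNA kit. Groups were taken from the genotype labels, 3 knockdown and 3 WT.

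Counts were fitted with edgeR 4.0.16 in R 4.3.3 (filterByExpr, TMM, glmQLFit, glmQLFTest, no covariate, all 6 libraries), with p-values adjusted by Benjamini-Hochberg across 12269 tested genes and a threshold of 0.05. SE was taken as the absolute fold change over the root of the F statistic. The deposited FPKM, which divide counts by gene length, were used for levels between genes and for an alternative. At these totals 1 count stands for 0.0444 to 0.0597 CPM. The scripts were tested on simulated data. Exon overlaps came from GENCODE M21 and similar transcripts from BLAST+ 2.17.0; promoter windows are RefSeq's. Deviations from the group means correlated at -0.471, -0.459 and -0.008 between libraries of the same letter (A, B and C). Knockdown B with WT A (0.530) and knockdown A with WT B (0.399) correlated across letters. These deviations also moved with gene length, so they cannot show whether a letter marks a shared culture or batch.

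The 54 genes and all lists were chosen with earlier results of these data known. Values per library are given for called members with a log2 fold change of at least 0.5 in size and for the largest change in each role; of the wider lists, the E2F and RB genes and up to 4 called genes with the smallest adjusted p in each direction are named, except for a result that is not reported here. Alternatives were DESeq2 1.42.0 and its size factors, library totals, 2 other count filters (a looser one of at least 1 count in any library and at least 1 CPM in 3 libraries), limma-voom, limma 3.58.1 on the log2 of FPKM plus a pseudocount of 1 or of 0.1 where the mean FPKM reached 0.5, a replicate block and leaving out each library.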

Additional observations from a re-analysis of the deposited data

How the results depend on the processing

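With 3 libraries per group and the depth above, differences of more than 2 times the printed SE could still miss the threshold, as for Dbf4 (0.58 ± 0.25), Rfc3 (0.25 ± 0.12) and Chaf1b (0.22 ± 0.08). The number of tested genes called, 4918, was 3326 with a replicate block and 3703 to 4870 when 1 library was left out. Members called higher went from 5 to 14 with library totals and 8 with at least 1 count in any library, and ranged from 4 (without knockdown C or WT C) to 10 (without knockdown B) when 1 library was left out. Members called lower went from 17 to 9 with library totals and 10 with the replicate block, and ranged from 10 (without WT C) to 15 when 1 library was left out. The replicate block ended the calls of Orc6, Mcm2, Mcm3, Rfc1, Pola1, Fen1, Uhrf1 and Timeless. What the letters mark is not given. The median of the members changed sign from -0.045 to 0.115 with library totals and ranged from -0.081 to 0.029 when 1 library was left out, with the positive value without knockdown A.

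All other changes of sign were of members that were not called in the fit reported above. With library totals Orc1 was at 0.015, Cdt1 at 0.061, Mcm4 at 0.044, Mcm6 at 0.099, Mcm10 at 0.080, Cdc7 at 0.032, Prim1 at 0.090, Prim2 at 0.141, Pold3 at 0.133, Pole2 at 0.131 and Rpa1 at 0.078. With at least 1 count in any library Prim2 was at 0.010, Pold3 at 0.004 and Pole2 at 0.003. When 1 library was left out, ranges spanned 0 for Orc1 (-0.335 to 0.136), Orc4 (-0.026 to 0.297), Mcm4 (-0.301 to 0.030), Mcm6 (-0.128 to 0.027), Prim1 (-0.211 to 0.125), Prim2 (-0.103 to 0.055), Pold3 (-0.142 to 0.109), Pole2 (-0.118 to 0.046) and Rrm2 (-0.050 to 0.118). The cause of these changes was not tested, except that library totals raise the median of all genes by 0.159. Of 32 members not called, 19 were called under none of the alternatives.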
